A study of Mus musculus with 75 samples.

Results

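Glycogen metabolism is described here through 7 listed genes, chosen by symbol: Gys1, Gys2, Gbe1, Pygl, Ppp1r3b, Ppp1r3c and Ugp2. Of these, 5 were found in the array annotation, each with 1 probe set, out of 19147 genes that could be named. Gys1 and Ugp2 were not analysed here. The list was selected on the lower Gys2 level under AM251 in fat from wild-type mice on the high-fat diet, so the values of that comparison are given below as a description, with no test for any of the 5 genes. For Gys2, no fat comparison that uses those 2 groups of arrays was tested.

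RNA of liver and epididymal white fat was hybridised to 75 one-colour arrays, 39 from liver and 36 from fat, which fall into 16 groups of 3 to 5. All mice were males on a C57BL/6 background, either CB1R-/-, lacking cannabinoid receptor 1 (CB1) in every cell, or wild-type littermates. From 2 months of age they ate regular chow (13% of its energy being fat) or a high-fat diet (59.4%) for 14 weeks, and they lived alone in a cage for the last week before dosing. On 2 days they received AM251, an inverse agonist of CB1, at 10 mg/kg by gavage, or only the methylcellulose vehicle, and tissues were taken on the morning after the second dose. In liver the high-fat-fed knockout vehicle group held 4 arrays and each other group 5. In fat the high-fat-fed knockout vehicle group and the chow-fed knockout AM251 group held 3 arrays each, and each other group 5. Arrays are named by the number in their titles, which restarts at 1 in each wild-type vehicle group.

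Glycogen is the branched polymer in which liver, muscle and, in small amounts, fat cells store glucose. Glycogen synthase, of which Gys2 is the liver form, lengthens its chains, and the branching enzyme Gbe1 adds the side chains. Glycogen phosphorylase, of which Pygl is the liver form, breaks the chains down and releases glucose units. Ppp1r3b and Ppp1r3c encode targeting subunits that bring a protein phosphatase to glycogen, where it activates the synthase and inactivates the phosphorylase.

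Promoter windows from RefSeq (build GRCm38.p6) were found for 3 of the 5 measured genes: Gbe1, Pygl and Ppp1r3c. No window was found for Gys2 or Ppp1r3b, so only these 3 are shown. Each sequence covers the 250 bases before the annotated start, 5′ to 3′ on the gene's own strand. Capitals mark matches to the motifs searched.
Gbe1, chr16:70313699-70313948, plus strand: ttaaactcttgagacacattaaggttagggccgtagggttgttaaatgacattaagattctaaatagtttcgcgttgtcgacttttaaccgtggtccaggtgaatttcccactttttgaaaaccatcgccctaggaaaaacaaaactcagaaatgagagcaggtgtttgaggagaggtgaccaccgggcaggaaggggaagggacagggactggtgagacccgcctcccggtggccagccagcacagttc
Pygl, chr12:70227684-70227933, minus strand: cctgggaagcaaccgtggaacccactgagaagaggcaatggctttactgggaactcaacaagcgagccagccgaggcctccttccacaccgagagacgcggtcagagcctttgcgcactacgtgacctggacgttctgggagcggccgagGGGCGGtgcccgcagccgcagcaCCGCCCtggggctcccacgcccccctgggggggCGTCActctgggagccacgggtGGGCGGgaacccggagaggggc
Ppp1r3c, chr19:36736605-36736854, minus strand: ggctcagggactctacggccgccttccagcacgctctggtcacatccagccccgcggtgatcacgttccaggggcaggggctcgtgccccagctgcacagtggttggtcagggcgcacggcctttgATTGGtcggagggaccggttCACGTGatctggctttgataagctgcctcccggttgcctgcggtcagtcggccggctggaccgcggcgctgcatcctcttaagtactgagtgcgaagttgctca

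The motifs were searched on both strands: the E-box CACGTG, the GC box GGGCGG, the CRE core TGACG, the full CRE TGACGTCA (which contains the core), the FOXO site GTAAACA, the CCAAT box CCAAT and the TATA box TATAAA. The Pygl window held 3 GC boxes, with first bases at -100, -77 and -22 from the start, and 1 CRE core at -44. The Ppp1r3c window held 1 E-box at -104 and 1 CCAAT box at -124. None of these letters was found in the Gbe1 window. Among 32851 RefSeq windows of the same length, 32.7% held a GC box, 17.8% a CRE core, 6.02% an E-box and 33.8% a CCAAT box. The full CRE was in 1.55%, the FOXO site in 3.17% and the TATA box in 12.4%. The G and C content was 48.8% for Gbe1, 69.2% for Pygl and 64.4% for Ppp1r3c, against a median of 52.4% over all windows.

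The arrays of a tissue resembled each other. Averaged per array, correlations with its tissue's other arrays were 0.974 to 0.992 for liver and 0.976 to 0.990 for fat, the lowest for liver being chow-fed knockout vehicle arrays 17 and 15. No columns were identical. The CB1 gene Cnr1 had 2 probe sets, and on both of them the arrays of knockout and wild-type mice overlapped in each tissue. On the brighter probe set in fat, group means ran from 6.20 to 7.14 in knockouts and from 5.29 to 7.24 in wild-type mice, on the log2 intensity scale. The position of these probes relative to the deleted part is not known, so they do not check the genotype labels. The tissue labels matched their markers: the hepatocyte gene Alb lay between 14.68 and 14.96 in liver and between 4.14 and 8.49 in fat, and the adipocyte gene Adipoq between 13.53 and 14.07 in fat and between 2.68 and 3.56 in liver. Fat array 36 of the high-fat-fed wild-type AM251 group carried epididymis genes, with a summed log2 level of 13.61 against 7.39 to 9.85 in the other 4 arrays of its group. This level ran from 7.43 to 10.74 in chow-fed wild-type vehicle fat and from 7.67 to 9.30 in high-fat-fed wild-type vehicle fat.

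In lean wild-type mice given vehicle all 5 genes were higher in liver than in fat. Levels are given as log2 intensity, in which 1 unit is a doubling, and changes as log2 change ± standard error (SE) from limma with Benjamini-Hochberg adjustment over 19147 genes. Gys2 had 9.54, 9.40, 9.69, 9.46 and 10.00 in the 5 liver arrays of chow-fed wild-type vehicle mice, and 6.38, 7.07, 6.84, 7.37 and 6.18 in the 5 fat arrays of that group. Every liver array lay above every fat array, with a change of 2.85 ± 0.27 (7.20-fold, adjusted p = 6.02e-15). Ppp1r3b differed most, by 3.77 ± 0.34 (13.7-fold, adjusted p = 4.16e-16), from 11.32, 10.96, 10.77, 11.16 and 9.91 in liver to 6.69, 7.05, 6.62, 7.64 and 7.26 in fat. Pygl was 0.88 ± 0.13 higher in liver, with no overlap, and Ppp1r3c 1.10 ± 0.28 higher, with liver array 5 at 7.69 below all 5 fat arrays.

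Gbe1 differed least, by 0.38 ± 0.16 (adjusted p = 0.0273), and its arrays overlapped between the tissues. It did not pass without liver array 4 or 5 or without fat array 1, 3 or 5 (adjusted p = 0.0576 to 0.0749). The comparison of tissues called 79.4% of all genes, and 65.6% of all genes had separate groups. The median of all genes was -0.50, so fat arrays were brighter on the whole. With each array centred on its median, the differences were 3.56 for Gys2, 1.08 for Gbe1, 1.59 for Pygl, 4.48 for Ppp1r3b and 1.81 for Ppp1r3c. In whole tissue, fewer cells of a type and less RNA per cell cannot be told apart.

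**Figure D1:**
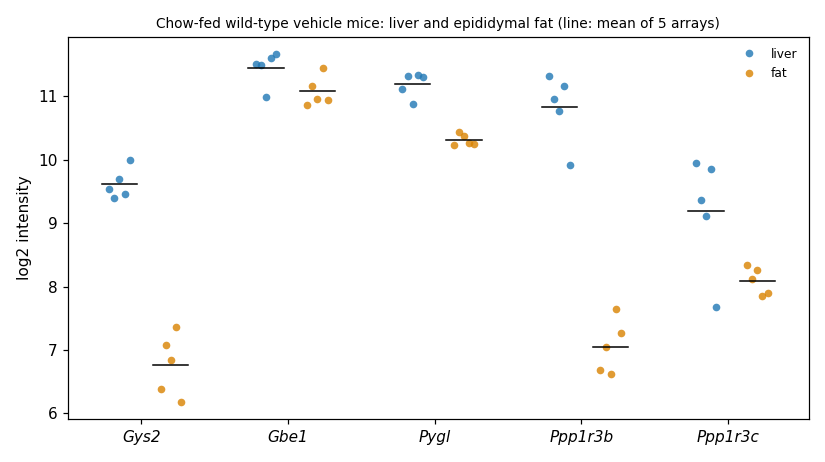
Log2 intensity of the 5 genes (vertical axis) in liver (blue) and epididymal fat (orange) of chow-fed wild-type vehicle mice; each point is an array and each line the mean of 5 arrays. The tissues are furthest apart for Ppp1r3b and Gys2 and overlap for Gbe1 and Ppp1r3c; levels of different genes come from different probes and are not comparable.

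The list was chosen on Gys2 in wild-type fat on the high-fat diet. The 5 vehicle arrays had 7.46, 7.05, 8.21, 8.08 and 7.77 (mean 7.71 ± 0.47, SD, n = 5). The 5 AM251 arrays had 6.62, 6.47, 5.40, 6.05 and 4.71 (mean 5.85 ± 0.79, SD, n = 5). Every AM251 array lay below every vehicle array, a difference of -1.86 ± 0.35 (0.275-fold), with AM251 arrays 35 and 37 the lowest. The median gene in fat was at 6.32, so Gys2 was dimmer than the typical gene under AM251. Without array 37 the difference was -1.58, and without array 36, the one with epididymis genes, it was -1.91. This comparison called 1.11% of all genes, a background from which nothing is read here since the list was chosen in it.

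The other 4 genes of the list differed less than Gys2 in these arrays. Gbe1 was at 9.80, 10.77, 10.28, 9.88 and 10.15 under vehicle and at 9.85, 9.23, 9.94, 9.53 and 9.79 under AM251, a difference of -0.51 ± 0.19 with overlapping groups. For Pygl the difference was 0.35 ± 0.15, for Ppp1r3b -0.37 ± 0.30 and for Ppp1r3c 0.18 ± 0.16, again with overlap between the groups. So 3 of the 5 genes were lower and 2 higher under AM251 on average. Only Gys2 had separate groups, and since the list was chosen on Gys2 in these arrays, nothing is read from that separation. Markers of other cell types were set beside these arrays. Of 8 endothelial markers 3 rose with AM251 (median over the 8 0.26), and of 7 macrophage markers 1 fell (median -0.29). None of 8 skeletal muscle markers was called (median -0.03), although Acta1 alone was at 10.48 to 11.38 under AM251 and at 8.80 to 10.02 under vehicle. None of 4 exocrine pancreas markers was called (median -0.18). The part of these shifts in the difference of Gys2 was not tested.

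**Figure D2:**
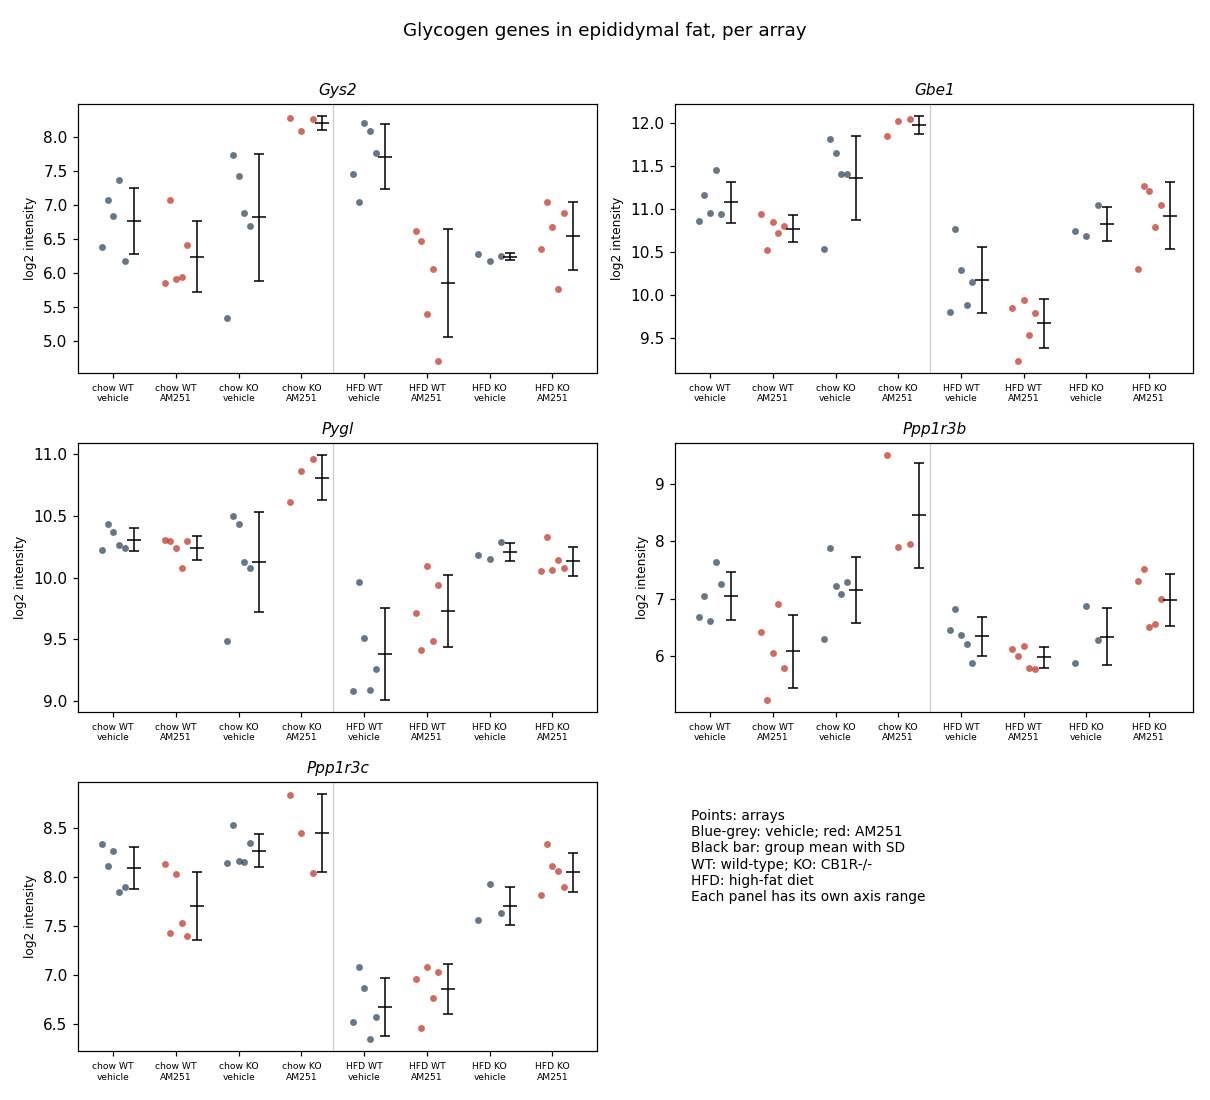
Log2 intensity (vertical axes, a range of its own in each panel) of the 5 genes in epididymal fat by group; points are arrays, vehicle in blue-grey and AM251 in red, and black bars give the group mean with SD. Gys2 has its highest means in high-fat-fed wild-type vehicle mice (7.71) and chow-fed knockouts given AM251 (8.21), while Gbe1, Pygl and Ppp1r3c are lowest in the high-fat-fed wild-type groups.

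In high-fat-fed knockouts the AM251 change of Gys2 did not pass the test. Vehicle arrays had 6.28, 6.18 and 6.26 and AM251 arrays 6.36, 7.04, 6.68, 5.77 and 6.88, a change of 0.31 ± 0.41 with overlapping groups (95% interval -0.52 to 1.13, adjusted p = 0.999). The vehicle level of these knockouts, 6.24 ± 0.05 (SD, n = 3), lay below all 5 vehicle arrays of high-fat-fed wild-type mice and inside the range of the AM251-treated ones. The wild-type minus knockout difference of the AM251 change was -2.17 ± 0.54 for Gys2, a description since it contains the comparison used for the choice; in that contrast 0.407% of all genes were called. None of the 5 genes passed in high-fat-fed knockout fat, where 0% of all genes were called by limma, with 0 of the 5 at an unadjusted p under 0.05.

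On chow AM251 left all 5 genes below the threshold in the fat of both genotypes. In wild-type mice Gys2 was at 6.38, 7.07, 6.84, 7.37 and 6.18 under vehicle and at 5.85, 7.08, 5.92, 5.94 and 6.41 under AM251, overlapping groups that differ by -0.53 ± 0.35 (adjusted p = 0.522). The largest difference in these mice was that of Ppp1r3b, from 6.69, 7.05, 6.62, 7.64 and 7.26 to 6.42, 5.24, 6.06, 6.91 and 5.79, also overlapping, at -0.97 ± 0.30 (adjusted p = 0.192). By limma 0 of 5 genes passed, against 0% of all genes called, and 2 of 5 had an unadjusted p under 0.05, against 13.4% of all genes.

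In chow-fed knockouts the AM251 arrays lay above all vehicle arrays for 4 of the 5 genes, yet none passed. Gys2 was at 5.34, 7.74, 7.43, 6.89 and 6.70 under vehicle and at 8.27, 8.09 and 8.26 under AM251, a difference of 1.39 ± 0.41 (adjusted p = 0.400). Ppp1r3b was at 6.30, 7.89, 7.22, 7.08 and 7.29 against 9.50, 7.89 and 7.96, groups that meet at 7.89, with a difference of 1.30 ± 0.35 (adjusted p = 0.311). Gbe1 differed by 0.62 ± 0.22 and Pygl by 0.68 ± 0.17, and Ppp1r3c by 0.18 ± 0.18 with overlap.

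Groups were separate for 5.60% of all genes in this comparison. By limma 0 of 5 genes passed, against 0.0157% of all genes called, and 4 of 5 had an unadjusted p under 0.05, against 8.13% of all genes. Vehicle array 15 was the lowest of its group for Gys2, Gbe1, Pygl and Ppp1r3b. Without it the differences were 1.02 for Gys2, 0.41 for Gbe1, 0.52 for Pygl and 1.08 for Ppp1r3b (adjusted p = 0.595 to 0.854). The AM251 change of wild-type minus that of knockout mice on chow was -2.27 ± 0.46 for Ppp1r3b (adjusted p = 0.0511), -1.92 ± 0.54 for Gys2, -0.92 ± 0.30 for Gbe1, -0.75 ± 0.23 for Pygl and -0.56 ± 0.24 for Ppp1r3c. None passed, against 0.00522% of all genes called, and 5 of 5 had an unadjusted p under 0.05, against 14.8% of all genes. Ppp1r3b passed without any of chow-fed knockout vehicle arrays 16 and 17 and wild-type arrays 1, 3, 10 and 13, or high-fat-fed arrays 6, 34, 37, 45 and 46 (adjusted p = 0.0172 to 0.0492).

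CB1 loss raised several of the genes in fat, on the high-fat diet and under AM251. In high-fat-fed vehicle mice 3 of the 4 genes tested rose, against 15.9% of all genes called. Ppp1r3c was at 6.52, 7.08, 6.87, 6.35 and 6.57 in wild-type mice and at 7.56, 7.93 and 7.63 in knockouts, with no overlap, a change of 1.03 ± 0.18 (2.04-fold, adjusted p = 0.000174). Pygl was at 9.08, 9.97, 9.51, 9.09 and 9.26 against 10.18, 10.15 and 10.29, also with no overlap, at 0.82 ± 0.17 (adjusted p = 0.00102). Gbe1 rose by 0.65 ± 0.22 (adjusted p = 0.0435) with overlapping groups, and Ppp1r3b was at -0.01 ± 0.35. Gys2, not tested here, lay on the other side of 0, at -1.47 ± 0.41.

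The call of Gbe1 in these mice was lost without any of wild-type arrays 1, 4, 5 and 6 (adjusted p = 0.0523 to 0.116) or knockout arrays 42, 43 and 44 (0.0634 to 0.211), with centring on array medians (0.0574) and in a fit of the 2 groups alone (0.0624). The median over the 5 genes was 0.65 and over all genes -0.01, and 21.3% of all genes had separate groups.

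Under AM251 on the high-fat diet 3 of 4 tested genes rose with CB1 loss, against 15.2% of all genes called. Gbe1 was at 9.85, 9.23, 9.94, 9.53 and 9.79 in wild-type mice and at 10.30, 11.26, 11.21, 10.79 and 11.04 in knockouts, separate groups with a change of 1.25 ± 0.19 (2.38-fold, adjusted p = 6.28e-05). Ppp1r3c was at 6.96, 6.46, 7.08, 6.77 and 7.03 against 7.82, 8.34, 8.11, 8.07 and 7.90, also separate, at 1.19 ± 0.16 (adjusted p = 1.08e-05). Ppp1r3b was at 6.12, 6.00, 6.19, 5.80 and 5.78 against 7.32, 7.52, 6.50, 6.56 and 6.99, again separate, at 1.00 ± 0.30 (adjusted p = 0.0200), and it did not pass without knockout array 46 (adjusted p = 0.0750). Pygl was at 0.40 ± 0.15 (adjusted p = 0.0683) and passed without wild-type AM251 array 35 or 37, without vehicle array 3 of the high-fat-fed wild-type group or without chow-fed knockout vehicle array 15 (adjusted p = 0.0275 to 0.0489). Gys2, not tested, was at 0.70 ± 0.35. Of all genes, 8.78% had separate groups in this comparison. Without wild-type array 36 the changes were 1.22 for Gbe1 (adjusted p = 0.000349), 1.16 for Ppp1r3c (8.02e-05) and 0.95 for Ppp1r3b (0.0477).

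Under AM251 on chow, 4 of 5 genes were raised in knockouts, against 3.39% of all genes called. Ppp1r3b was at 6.42, 5.24, 6.06, 6.91 and 5.79 in wild-type mice and at 9.50, 7.89 and 7.96 in knockouts, a change of 2.37 ± 0.35 (5.17-fold, adjusted p = 0.000148). Gys2 was at 5.85, 7.08, 5.92, 5.94 and 6.41 against 8.27, 8.09 and 8.26, a change of 1.97 ± 0.41 (3.91-fold, adjusted p = 0.00451). Both genes had separate groups, as had Gbe1, which rose by 1.21 ± 0.22 (adjusted p = 0.00183). So had 12.4% of all genes.

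Ppp1r3c rose by 0.74 ± 0.18 (adjusted p = 0.0193) in these mice with overlapping groups; it did not pass without knockout array 20 or 21 (adjusted p = 0.191 and 0.0730), without wild-type array 11 or 14 (0.0541 and 0.0531), or in a fit of the 2 groups alone (0.103). Pygl was at 0.57 ± 0.17 (adjusted p = 0.0638) with separate groups, and it passed without high-fat-fed wild-type vehicle array 3 or chow-fed knockout vehicle array 15 (adjusted p = 0.0347 and 0.0283). In chow-fed vehicle mice 0 of 5 genes passed by limma, 0 of 5 at an unadjusted p under 0.05, and 0.0575% of all genes were called; the changes lay between -0.18 for Pygl and 0.29 for Gbe1.

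The high-fat diet lowered Gbe1, Pygl and Ppp1r3c in the fat of wild-type mice. Under vehicle, Ppp1r3c went from 8.34, 8.12, 8.26, 7.85 and 7.90 on chow to 6.52, 7.08, 6.87, 6.35 and 6.57, a change of -1.41 ± 0.16 (0.375-fold, adjusted p = 5.49e-07). Pygl went from 10.22, 10.43, 10.37, 10.26 and 10.24 to 9.08, 9.97, 9.51, 9.09 and 9.26, at -0.93 ± 0.15 (adjusted p = 2.58e-05). Gbe1 went from 10.87, 11.16, 10.96, 11.45 and 10.94 to 9.80, 10.77, 10.28, 9.88 and 10.15, at -0.90 ± 0.19 (adjusted p = 0.000703). For all 3 genes the groups were separate, as were those of 16% of all genes in this comparison. Ppp1r3b was at -0.70 ± 0.30 (adjusted p = 0.0873), and Gys2, not tested, at 0.94 ± 0.35. These 3 of 4 genes stand against 24.5% of all genes called, and the median over the 5 genes was -0.90 against 0.02 over all genes.

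Under AM251 Gbe1, Ppp1r3c and Pygl, 3 of 4 tested genes, fell with the diet in wild-type fat, against 9.55% of all genes called. Gbe1 changed by -1.10 ± 0.19 (0.466-fold, adjusted p = 0.000623) and Ppp1r3c by -0.84 ± 0.16 (adjusted p = 0.00111), each with separate groups. Without high-fat array 36 these were -1.07 (0.00285) and -0.82 (0.00426). Pygl changed by -0.51 ± 0.15 (adjusted p = 0.0268) with overlap; it did not pass without high-fat array 33, 34 or 36 (adjusted p = 0.0517 to 0.108) or chow array 10, 12 or 14 (0.0503 to 0.0598). Ppp1r3b was at -0.10 ± 0.30, and Gys2, not tested, at -0.39 ± 0.35. Of all genes, 5.8% had separate groups in this comparison.

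In knockout fat the diet lowered 0 of 5 genes under vehicle and 3 of 5 under AM251. Under vehicle 0.00522% of all genes were called by limma. At an unadjusted p under 0.05 were 3 of the 5 genes, against 7.07% of all genes. There Pygl was at 0.08 ± 0.17, Gys2 at -0.58 ± 0.41, Gbe1 at -0.54 ± 0.22, Ppp1r3b at -0.81 ± 0.35 and Ppp1r3c at -0.56 ± 0.18 (adjusted p = 0.438). Ppp1r3c had separate groups, as had 5.21% of all genes.

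Under AM251, 0.810% of all genes were called in knockout fat, and 11.5% had separate groups. Gys2 went from 8.27, 8.09 and 8.26 on chow to 6.36, 7.04, 6.68, 5.77 and 6.88 on the high-fat diet, separate groups with a change of -1.66 ± 0.41 (0.316-fold, adjusted p = 0.0393). Ppp1r3b fell by 1.48 ± 0.35 (adjusted p = 0.0295) and Gbe1 by 1.06 ± 0.22 (adjusted p = 0.0146), and Pygl was at -0.68 ± 0.17 (adjusted p = 0.0541). Gys2 did not pass without chow array 20, 21 or 23 (adjusted p = 0.102 to 0.167) or high-fat array 45, 48 or 49 (0.0563 to 0.108), and Ppp1r3b not without chow array 20 or 23 (0.281 and 0.0560) or high-fat array 48 or 49 (0.0688 and 0.0824), or in a fit of the 2 groups alone (0.0942). Gbe1 did not pass without chow array 21 or 23 (0.0809 and 0.0961) or high-fat array 45 (0.0551), while Pygl passed without any of high-fat-fed wild-type arrays 1, 3, 34 and 35 or chow-fed knockout vehicle arrays 15 and 16 (0.0172 to 0.0494).

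The effect of the diet differed between genotypes for 2 of the 4 genes tested in vehicle fat, against 6.34% of all genes called. The knockout minus wild-type difference of the high-fat change was 1.00 ± 0.23 for Pygl (adjusted p = 0.00881) and 0.85 ± 0.24 for Ppp1r3c (adjusted p = 0.0299). It was 0.36 ± 0.30 for Gbe1 (adjusted p = 0.535) and -0.11 ± 0.46 for Ppp1r3b, neither of which passed. The call of Ppp1r3c was lost without knockout array 43 or 44, without high-fat wild-type array 1 or 5 or without chow wild-type array 1 (adjusted p = 0.0553 to 0.102).

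Markers of macrophages were also set beside the fat groups. The summed level of 7 of 11 listed markers was 13.41 to 14.21 in high-fat-fed wild-type vehicle mice and 13.10 to 13.96 in those given AM251. It was 12.57 to 13.24 in the arrays of the other 6 fat groups. Of the 7 markers, 6 rose with the diet in wild-type vehicle fat and 6 fell with CB1 loss in high-fat-fed vehicle fat. With CB1 loss under AM251 on the high-fat diet 5 of 7 fell, and with the diet in AM251-treated wild-type fat 1 of 7 rose. None of the 7 was called with CB1 loss in chow-fed AM251-treated fat, or with the diet in knockout fat under vehicle or AM251, by limma. Summed mesothelial markers had their 2 lowest group means, 11.25 and 11.52, in the high-fat-fed wild-type groups, against 11.70 to 12.004 elsewhere. The summed adipocyte markers had group means of 15.80 to 16.04, but single markers were called. Of 6 adipocyte markers, 1 rose and 2 fell with the diet in wild-type vehicle fat. With CB1 loss 2 rose and 1 fell in high-fat-fed vehicle fat. Under AM251 1 rose with CB1 loss on the high-fat diet and 2 fell on chow. The part of these shifts in the levels of Gbe1, Pygl and Ppp1r3c was not tested. Hepatocyte markers stayed low in fat, with summed group means of 6.66 to 7.82 against 15.79 to 15.95 in liver.

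**Figure D3:**
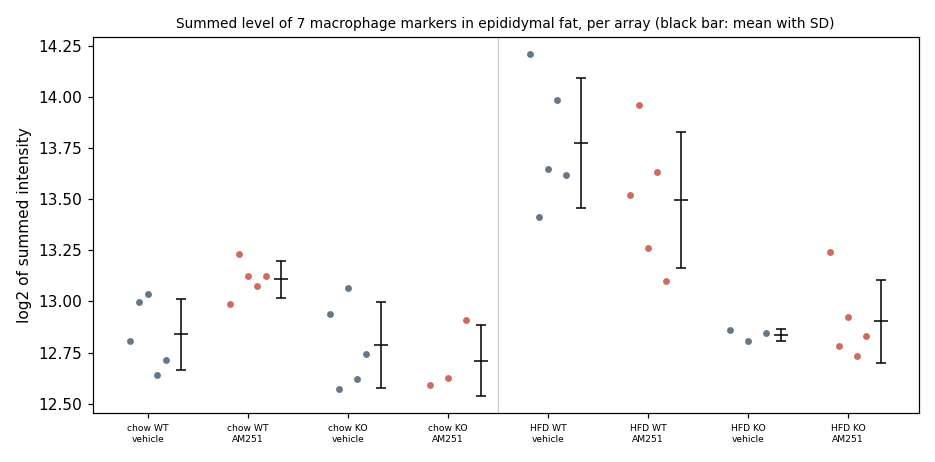
Log2 of the summed intensity of 7 macrophage markers (vertical axis) in epididymal fat by group; points are arrays, vehicle in blue-grey and AM251 in red, and black bars give the group mean with SD. The high-fat-fed wild-type vehicle arrays, 13.41 to 14.21, lie above all arrays of the 6 groups on chow or without CB1.

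In liver the high-fat diet raised Gys2 in all 4 combinations of genotype and treatment. Under vehicle, wild-type livers had 9.54, 9.40, 9.69, 9.46 and 10.00 on chow and 9.93, 10.09, 10.37, 10.31 and 10.46 on the high-fat diet, a change of 0.61 ± 0.15 (1.53-fold, adjusted p = 0.0235) with 1 chow array inside the high-fat range. Knockout livers had 8.96, 9.28, 9.78, 9.53 and 9.76 on chow and 9.98, 9.83, 9.84 and 10.60 on the high-fat diet, separate groups with a change of 0.60 ± 0.16 (adjusted p = 0.00844). Under AM251 the changes were 0.68 ± 0.15 in wild-type mice (adjusted p = 0.00651) and 0.56 ± 0.15 in knockouts (adjusted p = 0.0351), each with separate groups. Of all genes, 12.5% had separate groups in knockout vehicle liver. Under AM251 the share was 3.85% in wild-type and 6.13% in knockout liver. The knockout minus wild-type difference of the diet effect under vehicle was -0.01 ± 0.22 for Gys2 (95% interval -0.46 to 0.44).

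Gbe1 and Pygl rose with Gys2 in wild-type vehicle liver. Gbe1 went from 11.51, 11.50, 10.995, 11.60 and 11.67 to 11.82, 12.26, 12.16, 12.11 and 12.03, a change of 0.62 ± 0.11 (1.54-fold, adjusted p = 0.00115). Pygl went from 11.11, 11.31, 10.88, 11.33 and 11.30 to 11.46, 11.80, 11.79, 11.75 and 11.59, at 0.49 ± 0.11 (adjusted p = 0.0114). All high-fat arrays lay above all chow arrays for both genes, in a comparison where 2.91% of all genes had separate groups. So 3 of 5 genes rose, against 1.69% of all genes called, while Ppp1r3b was at -0.14 ± 0.35 and Ppp1r3c at -0.51 ± 0.33. The median over the 5 genes was 0.49 and over all genes -0.01. Of 6 adipocyte markers 1 rose with the diet in these livers (median over the 6 -0.09), and Adipoq stayed at 2.78 to 2.96 under the high-fat diet against 2.73 to 3.29 on chow. The summed log2 level of the 6 was 8.29 to 9.40 under the high-fat diet and 7.92 to 8.36 on chow. The part of this shift in the changes of the glycogen genes was not tested.

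In knockout vehicle liver Gys2 and Gbe1 (0.47 ± 0.12, adjusted p = 0.00579) rose, 2 of 5 genes against 17% of all genes called, and Pygl was at 0.31 ± 0.12 (adjusted p = 0.0601). Pygl passed without knockout chow array 16 or 17 or wild-type chow array 3 (adjusted p = 0.0185 to 0.0481). With AM251, Gys2 was the only 1 of 5 genes to rise in each genotype, against 1.96% of all genes called in wild-type and 2.64% in knockout liver. The genotype difference of the diet effect under vehicle passed for 0 of 5 genes by limma, against 4.17% of all genes called. At an unadjusted p under 0.05 were 0 of the 5, against 3604 of all 19147 genes.

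Several of these liver calls depended on single arrays or on the fit. In a fit of the compared groups alone Gys2 (adjusted p = 0.0992) and Gbe1 (0.0638) in knockout vehicle liver and Pygl (0.0524) in wild-type vehicle liver did not pass, nor did Gys2 in AM251-treated knockout liver with quantile normalization (0.0554). In wild-type vehicle liver Gys2 did not pass without any of chow arrays 1, 2 and 4 (adjusted p = 0.0505 to 0.0673) or high-fat arrays 3, 4 and 5 (0.0574 to 0.0702), and Pygl did not pass without chow array 3 (0.0680). In knockout vehicle liver Gys2 was lost without high-fat array 44 (0.0748), and without both of the less typical chow arrays 15 and 17 Gys2 changed by 0.54 (adjusted p = 0.0448) and Gbe1 by 0.31 (adjusted p = 0.106). In AM251-treated knockout liver Gys2 was lost without any of high-fat arrays 46, 47, 48 and 49 (0.0521 to 0.111) or chow arrays 20, 21 and 23 (0.0585 to 0.106).

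**Figure D4:**
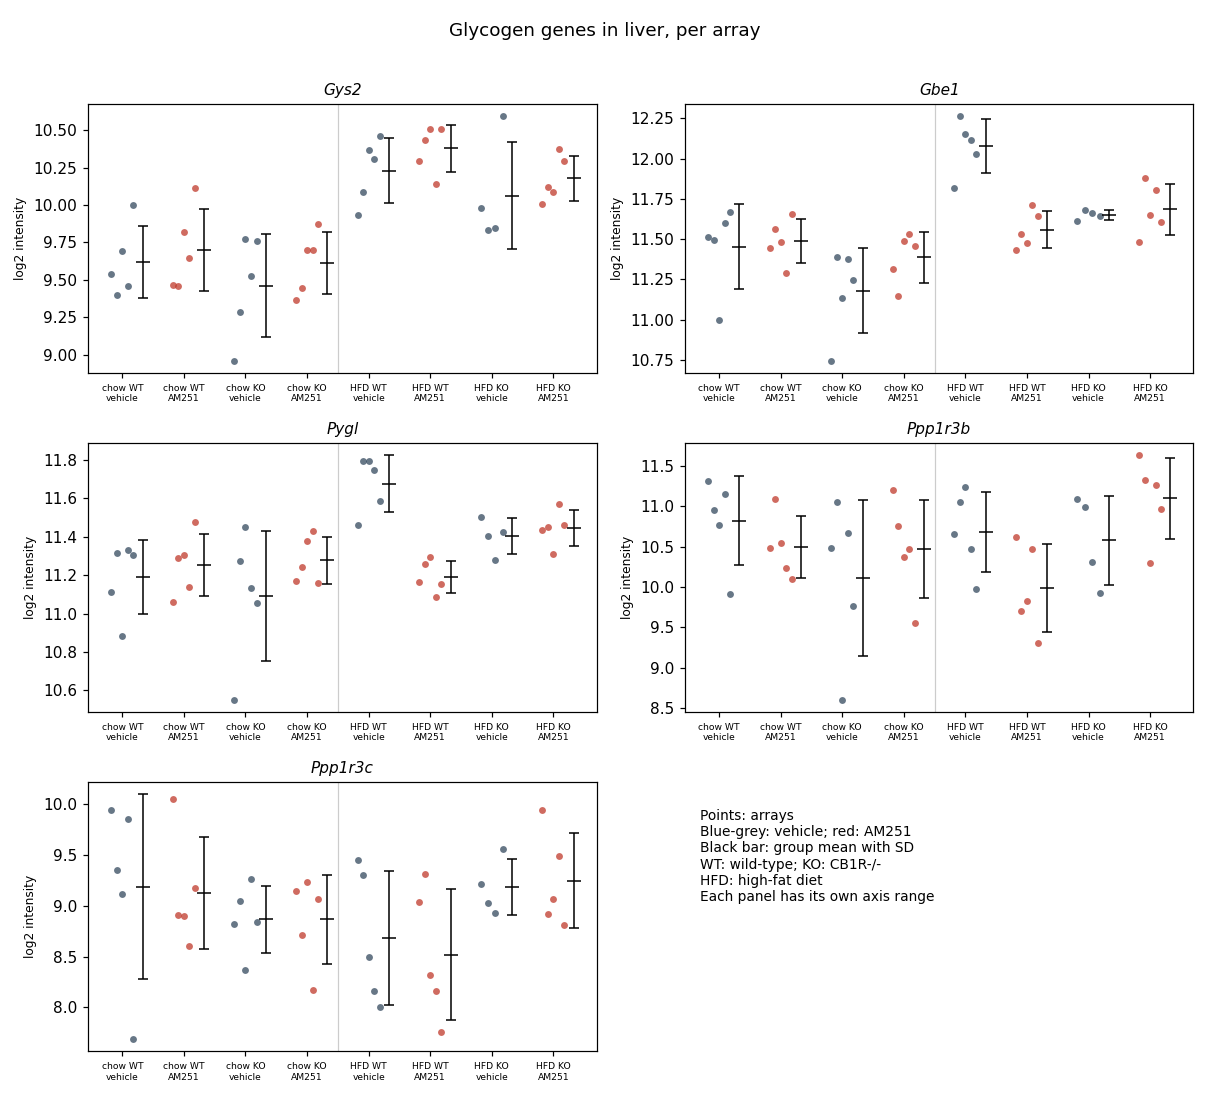
Log2 intensity (vertical axes, a range of its own in each panel) of the 5 genes in liver by group; points are arrays, vehicle in blue-grey and AM251 in red, and black bars give the group mean with SD. Gys2 is higher on the high-fat diet (9.83 to 10.60) than on chow (8.96 to 10.12), and the high-fat-fed wild-type vehicle arrays are the highest group for Gbe1 and Pygl.

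On the high-fat diet AM251 lowered Gbe1 and Pygl in wild-type liver, where Gys2 did not pass the test. Gbe1 went from 11.82, 12.26, 12.16, 12.11 and 12.03 under vehicle to 11.43, 11.53, 11.48, 11.71 and 11.64, a change of -0.52 ± 0.11 (0.699-fold, adjusted p = 0.00547). Pygl went from 11.46, 11.80, 11.79, 11.75 and 11.59 to 11.16, 11.26, 11.29, 11.08 and 11.15, at -0.49 ± 0.11 (0.714-fold, adjusted p = 0.00836). Both genes had separate groups, and their AM251 means, 11.56 and 11.19, lay near the chow-fed wild-type vehicle means of 11.45 and 11.19. These 2 of 5 genes stand against 1.91% of all genes called and 3.81% with separate groups. The median over the 5 genes was -0.49 against -0.01 over all genes. Gys2 was at 0.15 ± 0.15 (95% interval -0.16 to 0.46), Ppp1r3b at -0.69 ± 0.35 (adjusted p = 0.455) and Ppp1r3c at -0.16 ± 0.33.

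In the other liver groups AM251 changed none of the 5 genes by limma, and none had an unadjusted p under 0.05. The changes of Gbe1 and Pygl were 0.03 ± 0.12 and 0.04 ± 0.12 in high-fat-fed knockouts, where 0.0104% of all genes were called. In chow-fed wild-type mice they were 0.03 ± 0.11 and 0.06 ± 0.11, with 0% of all genes called. In chow-fed knockouts they were 0.21 ± 0.11 and 0.19 ± 0.11, with 0.125% called. Ppp1r3b was at 0.52 ± 0.37 in high-fat-fed knockouts, opposite in sign to its value in wild-type mice.

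The differences between these AM251 effects did not pass. Wild-type minus knockout on the high-fat diet was -0.55 ± 0.16 for Gbe1 (adjusted p = 0.155) and -0.53 ± 0.16 for Pygl (adjusted p = 0.173), with 0.564% of all genes called. At an unadjusted p under 0.05 were 3 of 5 genes, against 7.46% of all genes. High-fat minus chow in wild-type mice was -0.55 ± 0.16 for Gbe1 (adjusted p = 0.188) and -0.55 ± 0.16 for Pygl (adjusted p = 0.165), with 0.251% of all genes called, and 2 of 5 were at an unadjusted p under 0.05, against 6.86% of all genes. Pygl passed in both without chow-fed knockout vehicle array 15 (adjusted p = 0.0489 and 0.0486), and Gbe1 and Pygl both passed the genotype difference in a fit of the compared groups alone (0.0411 and 0.0254).

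By limma, CB1 loss changed 0 of 5 genes in liver in any of the 4 combinations of diet and treatment. Under vehicle 1.19% of all genes were called on the high-fat diet and 6.77% on chow, and under AM251 2.30% and 0.324%. At an unadjusted p under 0.05, in the same order, were 2, 2, 3 and 0 of the 5, against 12.2%, 20.9%, 11.2% and 13.6% of all genes. Gbe1 in high-fat-fed vehicle mice came closest: 11.82, 12.26, 12.16, 12.11 and 12.03 in wild-type livers against 11.61, 11.68, 11.66 and 11.64 in knockouts, separate groups at -0.43 ± 0.12 (adjusted p = 0.0718). It passed without high-fat wild-type array 1, chow wild-type array 3 or chow knockout array 15 (adjusted p = 0.0326 to 0.0357), and Gbe1 on chow, at -0.28 ± 0.11 (adjusted p = 0.140), passed without wild-type array 3 (0.0210). Ppp1r3b under AM251 on the high-fat diet was at 10.62, 9.71, 9.82, 10.47 and 9.31 in wild-type livers and 11.64, 11.33, 10.30, 11.26 and 10.97 in knockouts, overlapping groups at 1.11 ± 0.35 (adjusted p = 0.0937), which passed without chow knockout vehicle array 17 (0.0348). Pygl in the same mice had separate groups, 11.16, 11.26, 11.29, 11.08 and 11.15 in wild-type livers against 11.43, 11.45, 11.31, 11.57 and 11.46, at 0.25 ± 0.11 (adjusted p = 0.339). On the high-fat diet 5.66% of all genes had separate groups under vehicle and 4.16% under AM251.

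**Figure D5:**
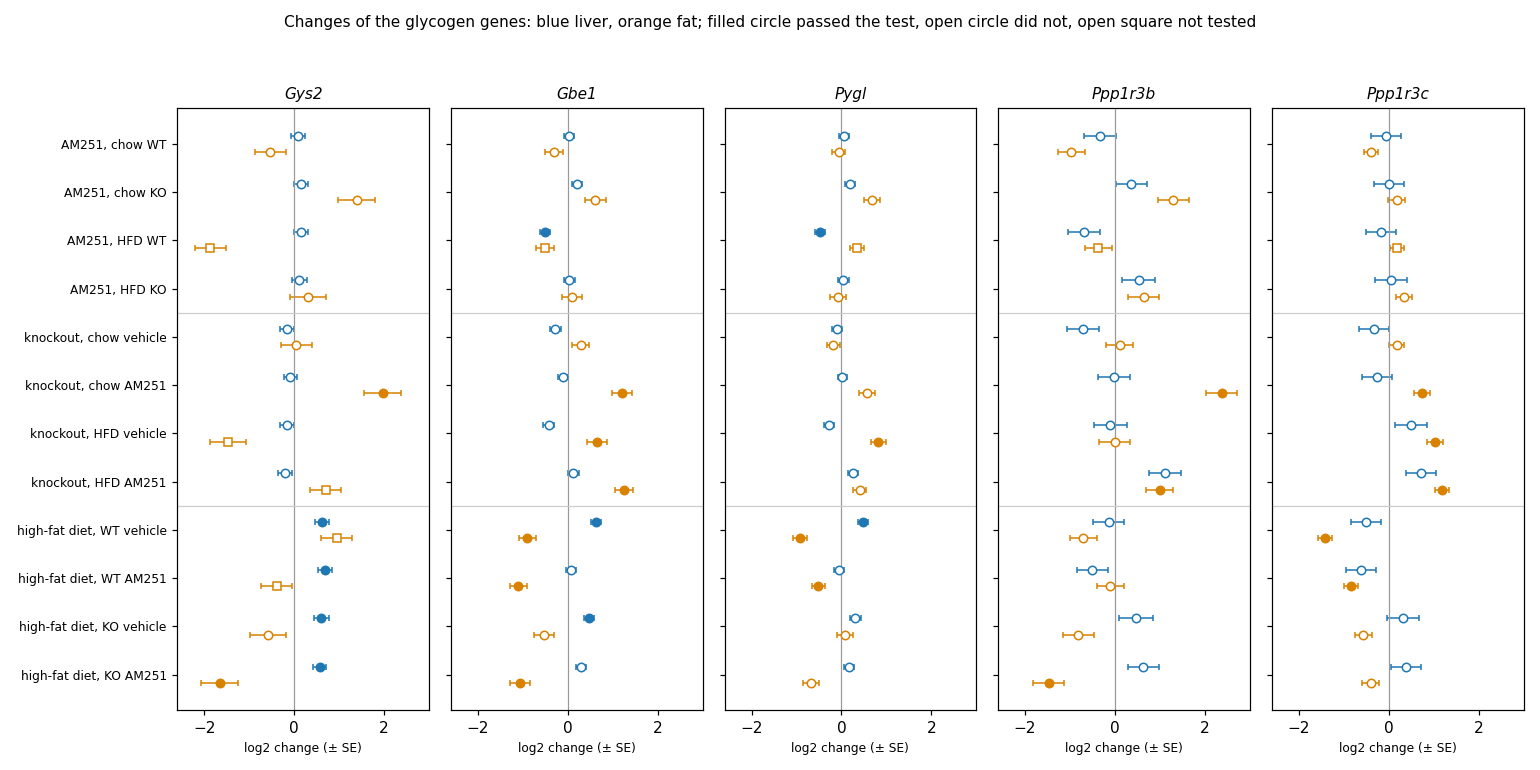
Log2 change ± SE (horizontal axes) of the 5 genes in 12 comparisons of AM251, knockout and diet in liver (blue) and epididymal fat (orange); filled circles passed an adjusted p of 0.05, open circles did not and open squares were not tested. The high-fat diet raises Gys2 in liver in 4 of 4 comparisons, while Gbe1 has opposite signs in liver and fat for the diet in wild-type vehicle mice (0.62 and -0.90).

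Over all 8 groups of a tissue, means of the 5 genes covered a wider range in fat than in liver. Group means of Gys2 ran over 2.36 log2 units in fat, from 5.85 to 8.21, and over 0.92 in liver, from 9.46 to 10.38. The ranges in fat and liver were 2.31 and 0.90 for Gbe1, 2.48 and 1.11 for Ppp1r3b, 1.77 and 0.73 for Ppp1r3c and 1.43 and 0.58 for Pygl. The fat ranges include both groups that the list was chosen on. Over the other 6 fat groups they were 1.97 for Gys2, 1.21 for Gbe1, 2.37 for Ppp1r3b, 0.74 for Ppp1r3c and 0.68 for Pygl. In fat the order of Gys2 means was chow knockout AM251 (8.21), high-fat wild-type vehicle (7.71), chow knockout vehicle (6.82), chow wild-type vehicle (6.77), high-fat knockout AM251 (6.55), high-fat knockout vehicle (6.24), chow wild-type AM251 (6.24) and high-fat wild-type AM251 (5.85). From the second of these groups on, no neighbours in that order differed by more than the larger of their SDs. In liver, Gys2 means of the 4 high-fat groups were above the 4 chow groups, and the gap between 10.06 (high-fat knockout vehicle) and 9.70 (chow wild-type AM251) was the only one beyond the spread.

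Chow-fed knockouts given AM251 had the highest fat mean of every one of the 5 genes: 11.98 for Gbe1, 10.81 for Pygl, 8.45 for Ppp1r3b, 8.44 for Ppp1r3c and 8.21 for Gys2. That group held 3 arrays, and none of the 5 genes passed for AM251 against vehicle in chow-fed knockout fat. The share of all genes with their highest fat mean in that group was not computed, so nothing is read from the count. At the other end, high-fat-fed wild-type mice under AM251 had the lowest means of Gbe1 (9.67), Ppp1r3b (5.98) and Gys2 (5.85), and those under vehicle the lowest of Pygl (9.38) and Ppp1r3c (6.68). In that order the chow-fed knockout AM251 group stood above the next group beyond the larger SD for Gys2, Gbe1, Pygl and Ppp1r3b, and not for Ppp1r3c. In liver the high-fat-fed wild-type vehicle group stood above the next group beyond the spread for Gbe1 (12.08 against 11.68) and Pygl (11.68 against 11.45). Liver means of Ppp1r3b lay between 9.99 and 11.10 and those of Ppp1r3c between 8.52 and 9.25, with no neighbours beyond their spread. In fat the median gene was at 6.32, above the lowest means of Ppp1r3b and Gys2, so their order there includes dim values.

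Of 27 other glycogen genes listed, 22 were measured. None of the 22 was called with AM251 in any of the 8 tissue, diet and genotype combinations, against 0% to 1.91% of all genes. At an unadjusted p under 0.05 were 1 to 3 of the 22 in each, against 3.36% to 13.9% of all genes. With the high-fat diet in wild-type vehicle fat 6 fell and 3 rose, 40.9% of the list against 24.5% of all genes called. Those that fell include the phosphoglucomutase Pgm1 (-0.63 ± 0.13), which links glucose units to glycogen synthesis, the brain-type phosphorylase Pygb (-0.72 ± 0.18) and the phosphatase targeting subunits Ppp1r3d (-0.50 ± 0.18) and Ppp1r3e (-0.54 ± 0.12). The muscle-type phosphorylase Pygm (-0.44 ± 0.12) and the ubiquitin ligase Nhlrc1 (malin, -0.45 ± 0.10) also fell. Glycogenin, Gyg, the primer of new glycogen particles (0.41 ± 0.12), Pgm2 (0.47 ± 0.13) and the phosphorylase kinase subunit Phkg2 (0.30 ± 0.08) rose. Under AM251 4 of the 22 fell with the diet in wild-type fat and none rose, 18.2% against 9.55% of all genes.

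With CB1 loss in high-fat-fed fat Pgm1 (0.71 ± 0.14) and Pygb (0.89 ± 0.21) rose under vehicle, 9.09% of the list against 15.9% of all genes called. Under AM251 7 of the 22 rose and 1 fell, 36.4% against 15.2%. The 7 include Pgm1 (0.83 ± 0.13), Pygb (0.85 ± 0.18), Ppp1r3d (0.96 ± 0.18) and Ppp1r3e (0.61 ± 0.12); the 1 that fell was Pgm2. In chow-fed AM251-treated fat the glycogen-binding protein Stbd1 was lower in knockouts (-1.20 ± 0.23), the only 1 of 22 called there, 4.55% against 3.39% of all genes. In liver the high-fat diet raised Gyg (0.42 ± 0.10) and Pgm2 (0.50 ± 0.13) in wild-type vehicle mice, 9.09% of the list against 1.69% of all genes. In knockout vehicle mice it raised 2 of 22, the kinase Gsk3b (0.63 ± 0.13), which inhibits glycogen synthase, and the phosphatase subunit Ppp1cb (0.52 ± 0.14), and lowered 3, in all 22.7% of the list against 17% of all genes.

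Among the genes of glucose entry and exit, the glucose transporter Slc2a2 rose with the high-fat diet in wild-type (0.64 ± 0.15) and knockout (0.60 ± 0.16) vehicle liver. The hexokinase Hk2, which traps glucose in the cell, fell by 1.28 ± 0.16 with the diet in wild-type vehicle fat and was higher by 0.88 ± 0.18 in high-fat-fed knockouts. Glucose-6-phosphatase, G6pc, which releases glucose from the liver, was higher by 0.96 ± 0.24 in knockout than in wild-type liver under AM251 on the high-fat diet (adjusted p = 0.0190).

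Genes whose 8 group means in a tissue were most like those of each member were found among 9572 brighter genes, by Pearson correlation. In fat they were Rbks (0.979), Eapp (0.978), Psmd6 (0.977), Alg5 (0.974) and Wdr41 (0.967) for Gys2, Bcs1l for Gbe1 (0.994), Abcd2 for Pygl (0.986), Dusp4 for Ppp1r3b (0.984) and Gdap10 for Ppp1r3c (0.996). In liver they were Csnk1g3 (0.988), Abcg5 (0.984), Rab11fip2 (0.983), Rere (0.978) and Ivns1abp (0.975) for Gys2, Hnmt for Gbe1 (0.982), Rnf103 for Pygl (0.962), Herc2 for Ppp1r3b (0.940) and Abcb11 for Ppp1r3c (0.930). These are the highest of many correlations over 8 points that share arrays, and are given as a description.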

How the data were processed

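Probe set intensities were deposited by the authors on a linear scale, obtained with RMA (robust multi-array averaging, which corrects background, normalizes and summarises probes; version not stated) per the submitters' processing notes. The descriptions name virtual pools, but the deposited values are intensities per array. Array medians were 25.8 to 28.7 in liver and 44.3 to 48.0 in fat. Group sizes of 3 to 5 limit the precision. Of 38385 probe sets, 24478 had 1 symbol; for each of 19147 genes the probe set of highest mean within that tissue was used.

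limma 3.58.1 (R 4.3.3, package data.table in version 1.17.8) was fitted to log2 intensities (plots with matplotlib 3.10.9, Python 3.11.15), 1 mean per group, all groups of a tissue together, or all 16 for the comparison of tissues. Two-sided moderated tests were adjusted over 19147 genes by the Benjamini-Hochberg method, threshold 0.05, and a 95% interval uses the moderated t quantile. The fit was tested on simulated data. Named genes are the listed members, other glycogen and glucose genes past the threshold, and, by likeness, the 5 genes for Gys2 and 1 for each other member with the highest correlation. Cell type levels are log2 sums of marker intensities. Members and lists were chosen with earlier results of these data known. Titles number the samples of a group without stating that each is another animal, so p-values measure the spread between these samples, which may be technical. Liver and fat arrays with the same number are not stated to be of the same mouse. Alternatives were the mean of all probe sets, quantile normalization, median centring, no dim genes, the compared groups alone, array weights, log2 of intensity plus 16, each array left out and a replicate block. Some numbers recur in both diet groups of wild-type vehicle mice. Deviations of same-numbered arrays from group means correlated at -0.16 to 0.22 in liver (5 pairs) and -0.13 to 0.06 in fat (4 pairs). For same-numbered liver and fat arrays of chow-fed wild-type vehicle mice the range was -0.13 to 0.13 (5 pairs). So few pairs cannot decide whether the arrays were paired.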

Additional observations from a re-analysis of the deposited data

Results flagged for a closer look

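The high-fat effect differed between genotypes in vehicle fat by 0.85 for Ppp1r3c and by 1.00 for Pygl (knockout minus wild-type, log2), past the threshold of the test of that difference. In liver, Gbe1 of chow-fed wild-type vehicle array 3 was 10.995, far below the next lowest array of its group at 11.50. In fat, Pygl of chow-fed wild-type AM251 array 13 was 10.08, with the next lowest at 10.24. Of 70 gene and group combinations checked for a single distant array, 2 were found, and chance alone gives about 1 in 20.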

How the results depend on the processing

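Of 35 called results of single genes, 21 kept their call under every alternative tried, 7 lost it only when 1 array was left out, 7 lost it under another alternative, and 0 changed sign. The count of knockout calls in liver, 0, became 1 with quantile normalization, without dim genes and in a fit of the compared groups, 2 with array weights, and 2 without both chow-fed knockout vehicle arrays 15 and 17, an alternative chosen after seeing the data. Diet calls in liver went from 7 to 4 with only the compared groups. Differences of effects in liver went from 0 to 2 with only the compared groups, with array weights and without arrays 15 and 17. The causes were not tested.

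Leaving out 1 array gave 0 to 2 knockout calls and 0 to 2 differences of effects in liver, and 1 to 3 differences of effects in fat, where 2 were called. A replicate block was fitted only for the diet effect in wild-type vehicle mice of each tissue and for the comparison of tissues. Diet calls in knockouts and under AM251 were carried over from the main fit and could not change. Counted this way the diet calls stayed at 7 in liver and 9 in fat, so these diet counts do not test the pairing. The comparison of tissues was refitted with arrays of the same group and number as a block, and its calls stayed at 5. For Gys2 the diet effect in wild-type vehicle liver was 0.61 with the replicate block (adjusted p = 0.0183). Groups of 3 arrays in fat limit what could be detected there.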
